A study of Mus musculus with 9 samples.

Results

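Metallothioneins and the zinc transporters that work beside them were examined in the RNA of stromal cells from mouse fat and muscle. The 6 genes Mt1, Mt2, Mtf1, Slc30a1, Slc39a14 and Slc39a8 were chosen by name, for their place in zinc handling. They are 6 of the 26214 genes in the table, and all 6 were among the 13601 genes tested, which had a mean of at least 10 normalised counts.

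The study asked how far fibro-adipogenic progenitors (FAPs), the Sca-1+ stromal cells of muscle, resemble adipose stromal cells (ASCs) once muscle has been injured. RNA sequencing was done on 9 libraries of male C57Bl/6 mice aged 8 to 12 weeks, all at day 1. The ASC group held 3 libraries from the subcutaneous fat (ScAT) of mice injected with NaCl, the FAP group held 2 libraries from the quadriceps after NaCl, and the injured FAP group held 3 libraries from the quadriceps after glycerol, an agent that destroys muscle fibres. A single library of CD31+CD45+ cells from glycerol-injected quadriceps entered no test. ASCs and FAPs were sorted with magnetic beads as CD31-, CD45- and Sca-1+ cells, and cells of 3 animals were pooled, so that the p-values measure the spread between these libraries, which may be technical. ScAT was digested with collagenase NB4 and DNAse and muscle with collagenase B and dispase II, so the tissue and its digestion cannot be told apart in any comparison of ASCs with cells from muscle. The libraries held 27349184 to 27481573 reads in genes for ASCs, 24052508 and 24164447 for FAPs, 26698572 to 27028114 for injured FAPs and 13091077 for the CD31+CD45+ cells.

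Metallothioneins are small cysteine-rich proteins that bind zinc and copper and also take up cadmium. MTF1 is the transcription factor that senses zinc in the cell and drives metallothionein genes and the exporter gene Slc30a1 through short metal response elements in their promoters. SLC30 transporters move zinc out of the cytosol and SLC39 transporters move it in, and metallothioneins as well as Slc39a14 are known in liver as genes that respond to inflammation.

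The promoters are shown because MTF1 acts through them and because 4 of the 5 genes whose promoter could be searched hold matches to the core of its element. Sequences were those of RefSeq on GRCm38.p6, 300 bases each, from 250 bases before the transcription start to 50 after it. Of the 6 genes 5 had an entry, with 6 entries in all since Slc39a8 has a pair. Slc39a14 had no entry, so its promoter was not searched. The motif was TGCACNC or TGCGCNC, searched on both strands, and no matches overlapped in these 6 entries. Capitals mark the matches in the 4 entries that hold any. The Mt1 promoter lies at chr8:94178839-94179138, that of Mt2 at chr8:94172368-94172667, that of Slc30a1 at chr1:191906531-191906830 and the second entry of Slc39a8 at chr3:135825407-135825706, all on the plus strand.
Mt1: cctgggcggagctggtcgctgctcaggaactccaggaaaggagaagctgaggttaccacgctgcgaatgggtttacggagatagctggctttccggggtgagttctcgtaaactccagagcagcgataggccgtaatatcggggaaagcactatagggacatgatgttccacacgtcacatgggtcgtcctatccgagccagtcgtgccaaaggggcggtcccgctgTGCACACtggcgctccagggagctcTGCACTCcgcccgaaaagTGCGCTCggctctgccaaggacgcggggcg
Mt2: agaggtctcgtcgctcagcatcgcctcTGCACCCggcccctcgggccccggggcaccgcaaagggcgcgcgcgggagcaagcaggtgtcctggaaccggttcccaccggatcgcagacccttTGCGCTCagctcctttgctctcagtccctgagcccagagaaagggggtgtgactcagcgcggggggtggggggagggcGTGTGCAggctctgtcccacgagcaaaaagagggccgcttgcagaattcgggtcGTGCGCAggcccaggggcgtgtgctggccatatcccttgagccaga
Slc30a1: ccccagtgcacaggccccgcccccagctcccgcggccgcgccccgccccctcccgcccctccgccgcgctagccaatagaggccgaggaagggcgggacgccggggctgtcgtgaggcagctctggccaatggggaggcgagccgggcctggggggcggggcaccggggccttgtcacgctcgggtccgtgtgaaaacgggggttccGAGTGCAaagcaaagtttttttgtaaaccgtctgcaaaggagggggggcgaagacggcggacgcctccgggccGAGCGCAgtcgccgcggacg
Slc39a8: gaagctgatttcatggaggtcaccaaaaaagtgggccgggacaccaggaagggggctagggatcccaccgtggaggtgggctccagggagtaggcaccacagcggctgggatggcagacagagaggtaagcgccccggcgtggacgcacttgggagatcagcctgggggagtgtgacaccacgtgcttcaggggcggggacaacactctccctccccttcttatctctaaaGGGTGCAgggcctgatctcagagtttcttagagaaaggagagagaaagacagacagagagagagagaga

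Mt1 held 3 matches, which begin 23 bases before the start and 2 and 20 bases after it, all on the strand of the gene. Mt2 held 4, of which 2 were on the strand of the gene. Slc30a1 held 2 and Slc39a8 held 1, all on the other strand, while the Mtf1 promoter and the other Slc39a8 entry held 0. Among all 32851 promoters in the table, 25.7% held at least 1 match, 7.11% at least 2, 1.97% at least 3 and 0.517% at least 4. Among the other zinc transporters, 9 of the 18 genes with an entry held a match. A match describes letters only, and binding of MTF1 was not measured.

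Of the 6 genes, 5 were called higher in ASCs than in FAPs and 0 lower, and the exception was Mtf1. A gene was called at an adjusted p under 0.05 with a log2 fold change beyond 0.58. Among all 13601 genes tested 47.2% were called in that comparison, 23.4% higher and 23.8% lower. After injury 3 of the 6 genes were higher in FAPs and 0 lower, namely Mt2, Slc39a14 and Slc39a8, where 52.6% of all genes were called, 24.9% higher and 27.7% lower. The share of 3 in 6 is close to that background, so the count alone sets nothing apart after injury, although all 3 calls pointed up. Against ASCs, 5 of the 6 were called in injured FAPs, 1 higher (Slc39a14) and 4 lower, where 50.8% of all genes were called, 25% higher and 25.8% lower. The median log2 fold change of the 6 genes was 1.87 in ASCs against FAPs, beside 0.00 for all genes tested. It was 0.71 in injured against uninjured FAPs, beside -0.05. For injured FAPs against ASCs it was -1.31, beside 0.02. At a common total the first and the last of these medians were 1.15 and -0.58, beside -0.48 and 0.58 for all genes, and quantile normalisation put the last at -0.87, beside 0.03. The libraries of the compared groups did not overlap for 6, 5 and 6 of the 6 genes in the order of the comparisons. Among the 13601 genes tested that held for 9825, 11424 and 9764, so separated groups were common here and set no gene apart. The 3 comparisons share their libraries pairwise, so their values are not independent of each other. Fold changes were taken on the log2(value + 1) scale, which understates those of low genes. In bulk samples such as these, fewer cells of a type and less RNA per cell cannot be told apart.

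**Figure D1:**
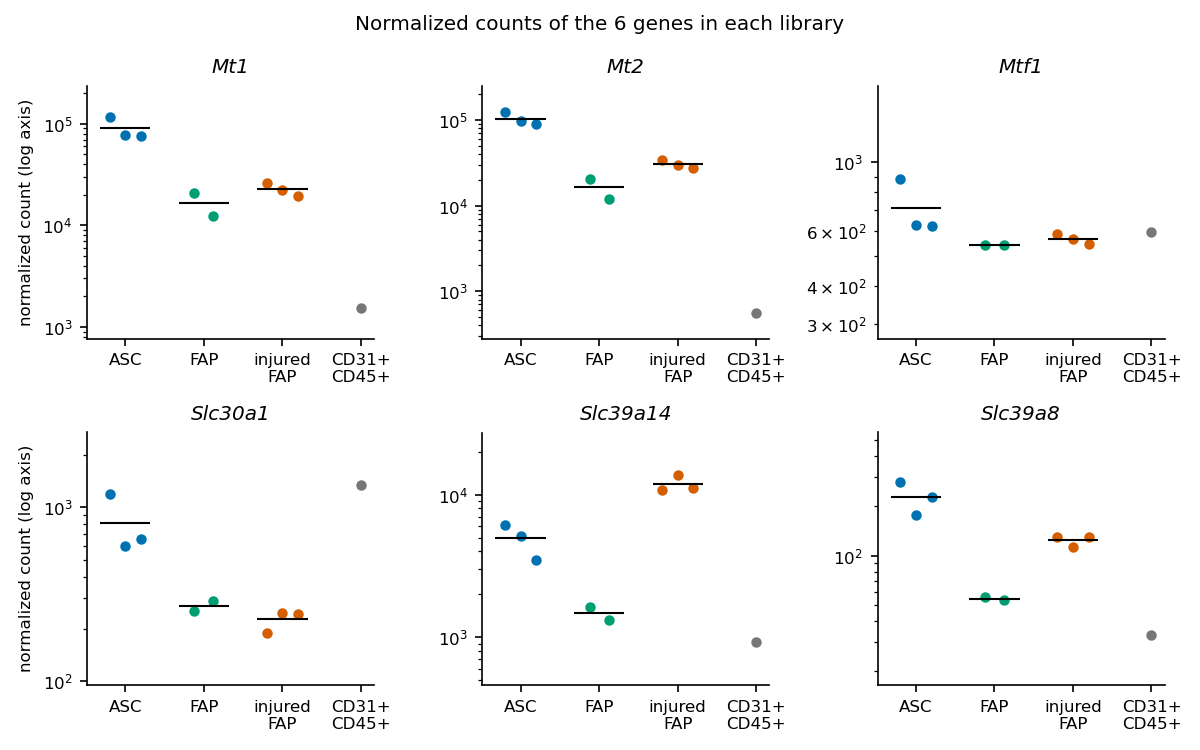
Normalised counts (log axis) of the 6 genes in each library, with 1 point per library and a line at the mean of each group that has more than 1. Slc39a14 stands highest in the 3 injured FAP libraries, while Mt1, Mt2, Slc30a1 and Slc39a8 stand highest in ASCs among the sorted stromal cells, and the CD31+CD45+ library has the highest Slc30a1 value.

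**Figure D2:**
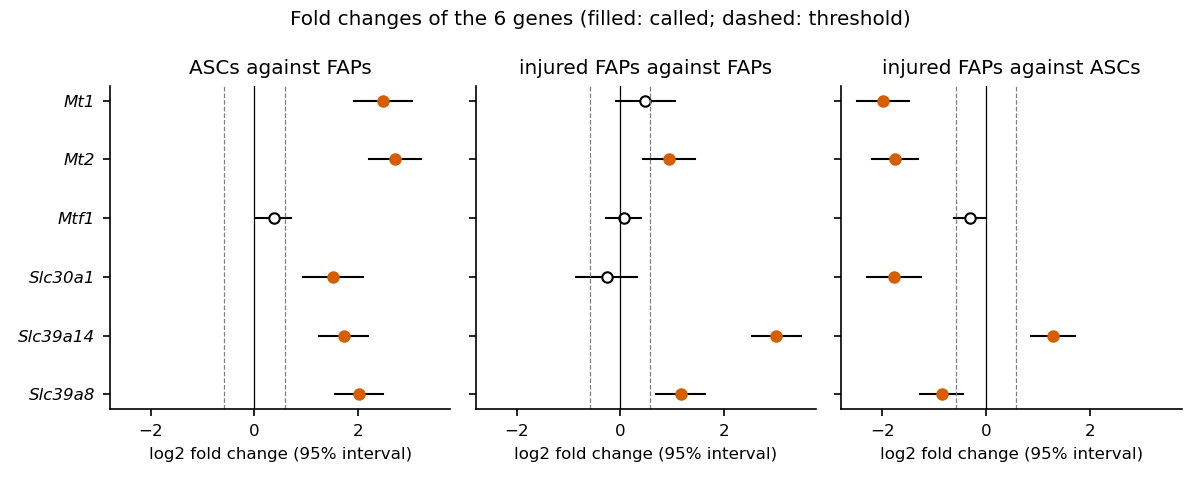
Log2 fold changes of the 6 genes (points) with 95% intervals (lines) in the 3 comparisons, filled where called and with dashed lines at 0.58 in either direction. Slc39a14 is higher in all 3 comparisons, and Mtf1 is called in none of them.

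Mt1 encodes metallothionein 1 and lies on mouse chromosome 8 (GRCm38, GENCODE M21) at chr8:94179082-94180327 on the plus strand. Its normalised counts were 117960, 78533 and 76113 in the ASC libraries, 20881 and 12327 in the FAP libraries and 26205, 22412 and 19266 in the injured FAP libraries. Every ASC library stood far above every library from muscle, and the lowest injured FAP library lay below the higher of the FAP libraries. Means were 90869 ± 23493 (SD, n = 3) in ASCs, 16604 ± 6048 (n = 2) in FAPs and 22628 ± 3474 (n = 3) in injured FAPs. Mt1 was 5.47-fold higher in ASCs than in FAPs by these means, a log2 fold change of 2.47 ± 0.25 (SE; limma, Benjamini-Hochberg adjusted p = 1.89e-05). In injured FAPs it was lower than in ASCs by a log2 fold change of -1.99 ± 0.23 (limma, Benjamini-Hochberg adjusted p = 2.56e-05). Both differences were smaller after quantile normalisation, at 1.54 and -0.996, and both kept their calls. Between injured and uninjured FAPs the groups overlapped, and the log2 fold change of 0.48 ± 0.25 did not pass (limma, Benjamini-Hochberg adjusted p = 0.114), with a 95% interval of -0.08 to 1.05. That value rests on single FAP libraries. It was 0.86 without FAP replicate 1, which passed (limma, Benjamini-Hochberg adjusted p = 0.0242), and 0.10 without FAP replicate 2, and it also passed when the libraries were scaled to a common total, at 0.62 (adjusted p = 0.0275, limma with Benjamini-Hochberg).

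Mt2 encodes the second broadly expressed metallothionein and lies at chr8:94172664-94173568 on the plus strand, 5513 bases from Mt1. Normalised counts were 124871, 96507 and 90510 in ASCs, 20688 and 12100 in FAPs and 33824, 30079 and 27566 in injured FAPs. For this gene the groups were fully separated, with ASCs highest, injured FAPs between and FAPs lowest. The means were 103963 ± 18354 (SD, n = 3), 16394 ± 6073 (n = 2) and 30490 ± 3149 (n = 3) in the same order of groups as above. The difference between ASCs and FAPs was a log2 fold change of 2.70 ± 0.22 (limma, Benjamini-Hochberg adjusted p = 4.71e-06). Mt2 rose in FAPs after injury by a log2 fold change of 0.94 ± 0.22 (limma, Benjamini-Hochberg adjusted p = 0.00397), a 1.86-fold difference of the means. That call was lost without FAP replicate 2, the lower of the pair, where the value was 0.55 (limma, Benjamini-Hochberg adjusted p = 0.0622). Even so the injured FAPs stayed below ASCs, at -1.76 ± 0.20 (limma, Benjamini-Hochberg adjusted p = 2.63e-05), a value that was -0.74 and still called after quantile normalisation. Mt2 passed after injury and Mt1 did not, but whether their responses differ was not tested.

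In ASCs both metallothionein genes were among the most abundant transcripts of the cell. By normalised count Mt2 ranked 23, 30 and 41 among all genes of the ASC libraries, and Mt1 ranked 30, 44 and 51. In FAPs Mt2 ranked 113 and 210, and in injured FAPs it ranked 56, 60 and 66. Mt1 ranked 112 and 207 in FAPs and 79, 98 and 119 in injured FAPs, where the groups overlapped. In the CD31+CD45+ library Mt2 ranked 6075 and Mt1 2932. Together the pair took 0.671%, 0.565% and 0.484% of the normalised counts in the ASC libraries, 0.182% and 0.107% in FAPs and 0.284%, 0.254% and 0.227% in injured FAPs. These shares put the 3 groups in the same order as the counts, without overlap. In the CD31+CD45+ library the share was 0.0102%, with 1538 normalised counts of Mt1 and 560.3 of Mt2.

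The balance within the pair differed between groups as well. The ratio of the Mt2 value to the Mt1 value was 1.06, 1.23 and 1.19 in ASCs, 0.991 and 0.982 in FAPs and 1.29, 1.342 and 1.43 in injured FAPs. The Mt2 count was thus above the Mt1 count in every ASC and injured FAP library, the counts were nearly equal in FAPs, and no group overlapped another. These counts take no account of transcript length. Per kb Mt2 was above Mt1 in the FAP libraries too, at 40485 against 38034 and 23678 against 22454. Group means of the ratio were 1.16 ± 0.0891 (SD, n = 3) in ASCs, 0.986 ± 0.00652 (n = 2) in FAPs and 1.35 ± 0.0708 (n = 3) in injured FAPs. In the CD31+CD45+ library it was 0.364, with Mt1 in excess. A scaling factor applied to a whole library cancels in this ratio, and its difference between groups was not tested.

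The sequences of the pair bear on how well reads can be assigned to each. Their principal transcripts are 549 bases for Mt1 and 511 for Mt2, with a coding length of 183 bases in each. They aligned over 192 bases, of which 152 were identical (79.2%), and the longest run they share was 20 bases. Of the 500 windows of 50 bases in the Mt1 transcript, 0 occurred in a transcript of another gene. For Mt2, 210 of 462 windows (45.5%) were shared with the antisense gene Gm45774, which is not in the table. The strand setting of the counting is not given in the sources used here, so how many Mt2 reads came from the other strand is uncertain, and the same holds for how reads with several matches were treated.

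The remaining metallothionein genes were close to silent. Mt3, the form best known from brain, had 15.8, 4.53 and 8.79 normalised counts in ASCs, 18.1 and 42.3 in FAPs and 11.0, 10.8 and 4.58 in injured FAPs. It was called lower in ASCs than in FAPs, at -1.57 (limma, Benjamini-Hochberg adjusted p = 0.0454), and lower in injured than in uninjured FAPs, at -1.64 (limma, Benjamini-Hochberg adjusted p = 0.0358), and both calls were lost after quantile normalisation (adjusted p = 0.177 and 0.0821, limma with Benjamini-Hochberg). Mt4, known from stratified epithelium, reached at most 18.4 normalised counts and was not tested. Nearly all metallothionein RNA of these cells was thus Mt1 and Mt2.

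Mtf1 encodes the zinc-sensing transcription factor and lies at chr4:124802104-124849800 on the plus strand. Its normalised counts were 882.6, 626.3 and 621.4 in ASCs, 540.1 and 542.8 in FAPs and 585.3, 566.5 and 546.9 in injured FAPs. ASC replicate 1 stood above all others, and the remaining libraries lay close together, though the groups did not overlap. The means were 710.1 ± 149 (SD, n = 3), 541.5 ± 1.93 (n = 2) and 566.2 ± 19.2 (n = 3). None of the 3 comparisons passed for Mtf1. In ASCs against FAPs the log2 fold change was 0.37 ± 0.15 (limma, Benjamini-Hochberg adjusted p = 0.0588), and in injured against uninjured FAPs it was 0.06 ± 0.15, with a 95% interval of -0.28 to 0.41 (adjusted p = 0.731). Injured FAPs against ASCs gave -0.31 ± 0.14 (limma, Benjamini-Hochberg adjusted p = 0.0719). All 3 directions depend on the scaling, since at a common total the first and the last became -0.19 and 0.37 and after quantile normalisation the middle became -0.031. Relative to the median of all genes, the first and last kept their signs at a common total, at 0.29 and -0.21. Of the windows of 50 bases in its transcript 8.86% occur also in the overlapping antisense gene 1110065P20Rik, so a part of these reads is uncertain.

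The zinc exporter Slc30a1, which sits in the plasma membrane and is a known target of MTF1, lies at chr1:191906767-191913247 on the plus strand. Normalised counts were 1196, 599.1 and 659.1 in ASCs, 254.8 and 288.8 in FAPs and 190.7, 247.2 and 245.6 in injured FAPs. All ASC libraries were above all FAP and injured FAP libraries, with ASC replicate 1 well above the other ASC libraries, and the injured FAPs lay just under the FAPs. The means were 818.1 ± 329 (SD, n = 3) in ASCs, 271.8 ± 24.03 (n = 2) in FAPs and 227.8 ± 32.2 (n = 3) in injured FAPs. Slc30a1 was higher in ASCs than in FAPs by a log2 fold change of 1.52 ± 0.26 (limma, Benjamini-Hochberg adjusted p = 0.000644). Leaving out any 1 library gave 1.21 to 1.71. In injured FAPs it was lower than in ASCs, at -1.78 ± 0.23 (limma, Benjamini-Hochberg adjusted p = 7.55e-05). Both differences were smaller at a common total, at 0.90 and -1.02 (1.38 and -1.60 relative to the median of all genes), and both kept their calls. For injured against uninjured FAPs the value of -0.26 ± 0.26 did not pass (limma, Benjamini-Hochberg adjusted p = 0.399), and its 95% interval of -0.84 to 0.32 holds differences in either direction. The antisense gene 1700034H15Rik shares 8.08% of the windows of the Slc30a1 transcript, and its own values were at most 20.4.

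The importer Slc39a14, also called ZIP14, carries zinc, iron and manganese and lies at chr14:70303469-70351425 on the minus strand. Its normalised counts were 6164, 5145 and 3511 in ASCs, 1628 and 1313 in FAPs and 10817, 13638 and 11051 in injured FAPs. The injured FAPs were highest, the ASCs followed and the uninjured FAPs were lowest, with wide gaps between the groups. The means were 4940.2 ± 1338 (SD, n = 3), 1470.6 ± 222 (n = 2) and 11835 ± 1566 (n = 3). Slc39a14 rose in FAPs after injury by a log2 fold change of 3.01 ± 0.21 (limma, Benjamini-Hochberg adjusted p = 1.59e-06), an 8.05-fold difference of the means. By size of the fold change it ranked 638 among the 13601 genes tested, so it was large without being among the most extreme. Leaving out any 1 library moved the value only between 2.85 and 3.16. ASCs also exceeded FAPs, at 1.72 ± 0.21 (limma, Benjamini-Hochberg adjusted p = 6.84e-05). Of the 6 genes it was the only one higher in injured FAPs than in ASCs, at 1.29 ± 0.19 (limma, Benjamini-Hochberg adjusted p = 0.000156), and it was so under every scaling tried. At a common total the difference of ASCs from FAPs was 1.14 and that of injured FAPs from ASCs 1.98, and relative to the median of all genes 1.62 and 1.40. By normalised count it ranked 255, 170 and 246 in the injured FAP libraries, against 2436 and 3020 in FAPs and 864, 881 and 1372 in ASCs. No other gene overlaps its annotation, and 21 of 4877 windows (0.431%) of its transcript occur elsewhere.

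The importer Slc39a8, also called ZIP8, transports zinc, manganese and cadmium and is the closest relative of Slc39a14. It lies at chr3:135825279-135888572 on the plus strand. This was the lowest of the 6 genes, with 279.3, 177.8 and 228.5 normalised counts in ASCs, 56.1 and 53.6 in FAPs and 130.2, 112.4 and 130.4 in injured FAPs. The groups did not overlap, with ASCs highest, injured FAPs between and FAPs lowest, and the FAP values rest on 59 and 57 reads. The means were 228.5 ± 50.7 (SD, n = 3), 54.9 ± 1.75 (n = 2) and 124.3 ± 10.4 (n = 3). Slc39a8 was higher in ASCs than in FAPs by a log2 fold change of 2.01 ± 0.21 (limma, Benjamini-Hochberg adjusted p = 2.13e-05). It rose in FAPs after injury by 1.16 ± 0.21 (limma, Benjamini-Hochberg adjusted p = 0.000707), a smaller rise than that of Slc39a14 by point estimate, and the difference between the rises was not tested. In injured FAPs it stayed under ASCs, at -0.85 ± 0.19 (limma, Benjamini-Hochberg adjusted p = 0.00231). The difference between ASCs and FAPs was 1.17 at a common total and still called. The call of injured FAPs against ASCs was lost there, where the value was -0.14 (limma, Benjamini-Hochberg adjusted p = 0.391), although relative to the median of all genes it was -0.72. The genes 4933401H06Rik, Gm43428 and Gm43429 overlap its annotation, and none of them shares a window with its principal transcript.

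The order of the groups was thus not the same for every gene. Among the sorted stromal cells the ASC libraries were highest for Mt1, Mt2, Slc30a1 and Slc39a8. Slc39a14 alone had its highest values in injured FAPs. The lowest group was FAPs for Mt2, Slc39a14 and Slc39a8, while for Mt1 and Slc30a1 the difference between FAPs and injured FAPs did not pass the test. The order for Mtf1 held no pair of groups that passed.

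Per length, which makes genes comparable, the metallothioneins were far above the rest of the group. In ASCs Mt2 had a mean of 203450 normalised counts per kb of transcript and Mt1 165517, while Slc39a14 had 1003. Still in ASCs, Slc30a1 had 156, Mtf1 93.1 and Slc39a8 64.7 per kb. In FAPs the order per kb was Mt2 at 32081, Mt1 at 30244, Slc39a14 at 298.5, Mtf1 at 71.0, Slc30a1 at 51.8 and Slc39a8 at 15.5. Per kb Mt2 was above Mt1 in each of the 8 sorted libraries, although in FAPs and in ASCs the ranges of the genes overlapped. In injured FAPs Mt2 had 59667, Mt1 41216, Slc39a14 2403, Mtf1 74.2, Slc30a1 43.4 and Slc39a8 35.2 per kb. By the means, the exporter Slc30a1 was above the importer Slc39a8 in every group, though their values in the injured FAP libraries overlapped, and it was above Mtf1 in ASCs alone among the sorted cells.

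Among the 14 SLC39 genes, Slc39a14 changed its place with injury. Summed per kb over the family, ASCs had 7450.1 ± 407 (SD, n = 3), FAPs 5828 ± 350 (n = 2) and injured FAPs 8667 ± 383 (n = 3). Slc39a14 made up 13.4% ± 3.02 of that sum in ASCs, 5.11% ± 0.468 in FAPs and 27.7% ± 2.44 in injured FAPs. It was the first gene of the family in each injured FAP library, whereas Slc39a7, an endoplasmic reticulum transporter, came first in each ASC library with 27.1%, 28.3% and 30.0%. In the FAP libraries Slc39a1, a plasma membrane importer, came first with 27.7% and 28.6%. Slc39a8 stayed a minor member, with 0.870% in ASCs, 0.267% in FAPs and 0.408% in injured FAPs. Among the 10 SLC30 genes, Slc30a1 made up 12.4% ± 4.03 of the summed level per kb in ASCs, 5.61% ± 0.726 in FAPs and 3.71% ± 0.387 in injured FAPs. Slc30a5, which serves the secretory pathway, was first of the SLC30 genes in all 8 sorted libraries. These shares do not move with a scaling factor of the library, and their differences between groups were not tested.

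**Figure D3:**
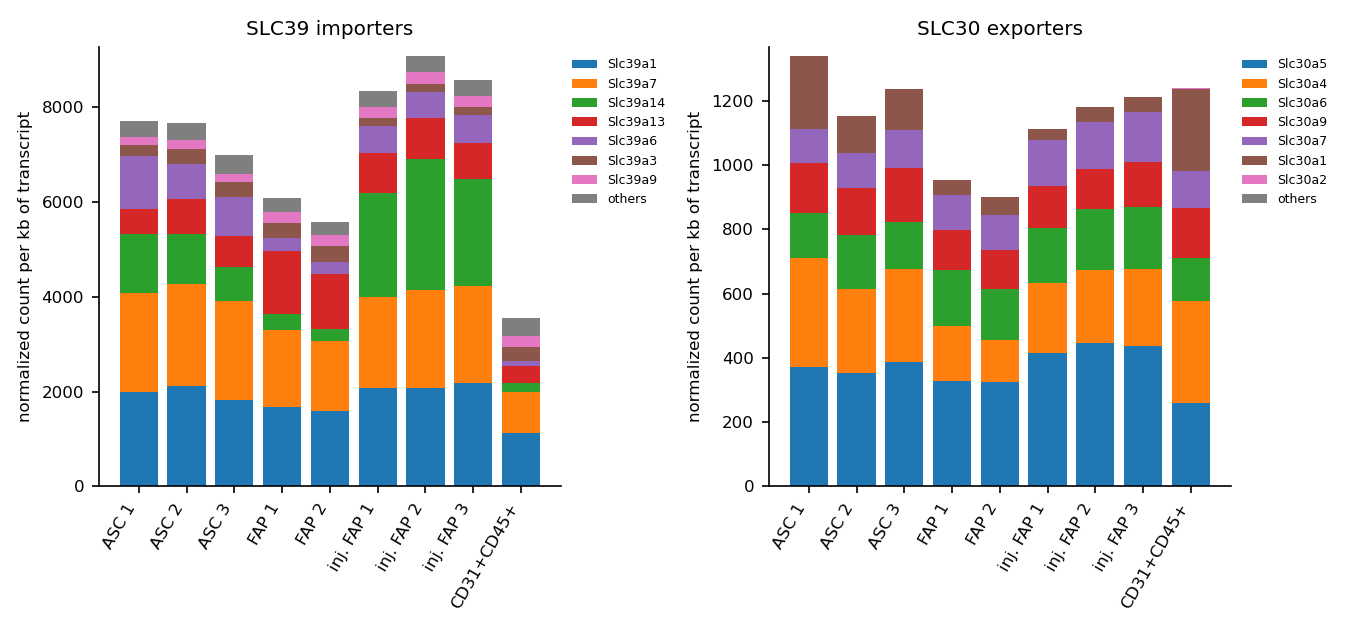
Normalised counts per kb of transcript of the SLC39 importers (left) and SLC30 exporters (right), stacked by gene for each library, with the 7 most abundant genes of each family in colour and the rest together. The Slc39a14 segment is largest in the 3 injured FAP libraries, and the Slc30a1 segment is larger in the ASC and CD31+CD45+ libraries than in those of FAPs and injured FAPs.

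The other zinc transporters were read beside the members. Of 21 further SLC30 and SLC39 genes 14 were tested. In ASCs against FAPs 3 were higher and 1 lower, with a median log2 fold change of 0.11. At a common total 1 was higher and 5 were lower, with a median of -0.38, beside -0.48 for all genes. The median was -0.09 after quantile normalisation and -0.06 at the 75th percentile, so its sign depends on the scaling. Slc39a6, a plasma membrane importer, was higher by 1.82 (limma, Benjamini-Hochberg adjusted p = 3.67e-06), Slc30a4 by 0.98 and Slc39a11 by 0.90, and Slc39a13 was lower, at -0.97. The calls of Slc30a4 and Slc39a11 were lost at a common total, at 0.40 and 0.31. After injury 3 were higher in FAPs and 1 lower, with a median of 0.26. The counts were the same at a common total, while quantile normalisation and the 75th percentile gave 2 higher and 2 lower. Slc39a6 was higher by 1.15 (limma, Benjamini-Hochberg adjusted p = 6.52e-05), Slc39a11 by 0.65 and Slc30a4 by 0.60, and Slc39a3 was lower, at -0.97 (limma, Benjamini-Hochberg adjusted p = 8.41e-05). The Slc30a4 call was lost without FAP replicate 2 (0.40) and without injured FAP replicate 3 (0.57), and after quantile normalisation (0.53) and scaling to the 75th percentile (0.55). Slc39a13, at -0.575, was not called, but it was called lower under those same scalings (-0.74 and -0.63) and without FAP replicate 2 (-0.68), injured FAP replicate 1 (-0.59) or injured FAP replicate 2 (-0.61). Slc39a2, at most 27 reads in a library, did not pass at -2.18 (limma, Benjamini-Hochberg adjusted p = 0.0723) and passed without ASC replicate 1, ASC replicate 2 or injured FAP replicate 2. In injured FAPs against ASCs 0 were higher and 2 lower. The median was 0.01, and at a common total 0.71, beside 0.58 for all genes. The lower genes were Slc39a3 at -0.71 and Slc39a6 at -0.67. Both calls were lost at a common total, at -0.02 and 0.03, where 8 of the 14 were higher and 0 lower, and the Slc39a6 call was lost as well after quantile normalisation (-0.41), at the 75th percentile (-0.55) and without ASC replicate 1 (-0.51).

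A list of 5 further genes described as MTF1 targets stood beside the metallothioneins and Slc30a1, and all 5 were tested. In ASCs against FAPs 2 were higher and 1 lower, with a median of 0.24 (-0.32 at a common total, beside -0.48 for all genes). Gclc, a subunit of the enzyme that begins glutathione synthesis, was higher by 3.11 ± 0.32, and Ndrg1 by 1.74 ± 0.28. Csrp1 was lower, at -1.09 ± 0.10. After injury 0 of these genes rose in FAPs and 1 fell, Pgf at -1.43 ± 0.35, with a median of -0.55. In injured FAPs against ASCs 0 were higher and 3 lower, with a median of -1.45 (-0.69 at a common total). The furthest were Gclc at -2.69 ± 0.29 and Ndrg1 at -2.41 ± 0.25. In the last comparison each of the other scalings gave 1 higher and 3 lower, and after injury quantile normalisation and the 75th percentile gave 0 and 3. Gclc, Ndrg1 and Slc30a1 were thus called higher in ASCs than in either kind of FAP. Pgf was called against injured FAPs, at -1.45, and not against FAPs, and Csrp1 was called higher in ASCs against neither.

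Some genes elsewhere in the table followed the 6 genes closely over the 8 sorted libraries. Likeness was the Pearson correlation r of log2(value + 1) among 10592 genes with a mean of at least 100, and since the 8 libraries fall into 3 groups it reflects mainly the group means. Closest to Mt1 were Zbtb2 (r = 0.996), Pcdh9 (0.994) and Flrt2 (0.993). For Mt2 they were Gm12250 (0.996), Cebpb (0.996), which encodes a transcription factor of acute inflammation, and Ifi211 (0.995). Mtf1 was followed by Poldip3 (0.989), Pprc1 (0.985) and Polg (0.984), and Slc30a1 by Mafg (0.992) and Edrf1 (0.991). Nearest to Slc39a14 came Srm (0.995), which encodes spermidine synthase, then Ccl9 (0.994), a chemokine, and Pus7 (0.994). Slc39a8 was matched by Ppp2ca (0.999), Txnrd1 (0.998), which encodes thioredoxin reductase, and Acsl5 (0.998).

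The cell identity of the libraries was checked with marker genes. Pdgfra, the defining receptor of these stromal cells, had at least 10837 normalised counts in every ASC library, 17754 and 17757 in FAPs and at least 23236 in the injured FAPs, against 119 in the CD31+CD45+ library. Ly6a, which encodes Sca-1, ranged over the sorted libraries from 10823 in a FAP library to 49855 in an ASC library, and its value in the CD31+CD45+ library was 17672, above both FAP libraries. Both genes were thus high in every sorted library. Of 8 stromal markers 5 were higher and 0 lower in ASCs than in FAPs, 1 higher and 5 lower in injured than in uninjured FAPs, and 1 higher and 7 lower in injured FAPs than in ASCs. Quantile normalisation left 1 higher and 1 lower in ASCs against FAPs, 1 higher and 3 lower after injury and 1 higher and 2 lower in injured FAPs against ASCs. A common total gave 2 and 1, 1 and 4, and 1 and 4 in the same order. After quantile normalisation Col1a1 and Col3a1 were at -0.036 and 0.37 after injury, against -1.59 and -0.92 as reported. ASC libraries summed to between 2768810 and 3181960, FAPs to 1563300 and 1695780, injured FAPs to between 670391 and 745950 and the CD31+CD45+ cells to 64186, with Col1a1 or Col3a1 at the top.

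Of 10 leukocyte markers tested, 8 were higher in injured than in uninjured FAPs and 0 lower. Their sum was 495.3, 414.5 and 386.7 in ASCs, 265.3 and 496.7 in FAPs, 742.2, 3397 and 631.5 in injured FAPs and 34468 in the CD31+CD45+ library. Cd68 was the most abundant in most of these libraries, with Csf1r in ASC replicate 2, Lyz2 in injured FAP replicate 2 and Cd74 in the CD31+CD45+ library, and 10 of the 13 markers, Ptprc (CD45) and Lyz2 among them, were at 0 in each FAP library. In ASCs against FAPs 5 were higher and 0 lower (1 and 1 at a common total), and in injured FAPs against ASCs 8 were higher and 1 lower. The CD31+CD45+ library, in which these markers were highest, had less Slc39a14 (926), Slc39a8 (33.0), Mt1 (1538) and Mt2 (560.3) than any sorted library. It is a single library whose endothelial markers (296214) and smooth muscle and pericyte markers (82530) summed to more than its leukocyte markers, so its values are not those of leukocytes alone. Injured FAP replicate 2 had the highest leukocyte sum and the highest Slc39a14 value of its group, and without that library the Slc39a14 log2 fold change after injury was 2.90. The part of leukocytes in the Slc39a14 values was not tested.

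Endothelial markers summed to 6522, 5171 and 6972 in ASCs, 5949 and 3960 in FAPs, 1622, 1796 and 1368 in injured FAPs and 296214 in the CD31+CD45+ library. Tek was at the top in ASCs and FAPs and Cdh5 in the others. Most of each ASC sum was Tek, at 5986, 4841 and 6700, against 2121 and 1890 in FAPs and 395, 367 and 365 in injured FAPs. Cdh5 had another order, with 123, 87.2 and 59.0 in ASCs, 1438 and 686 in FAPs and 649, 663 and 537 in injured FAPs. Vwf, Emcn and Cldn5 were at 0 in both FAP libraries and Pecam1 (CD31) in 1 of them. Of 9 tested, 3 were higher and 5 lower in ASCs than in FAPs (1 and 5 at a common total, where Emcn and Cldn5 lost their calls at 0.35 and 0.52), 2 higher and 5 lower after injury, and 5 higher and 1 lower in injured FAPs than in ASCs. Smooth muscle and pericyte markers summed to 5441, 3544 and 4453 in ASCs, 20564 and 17130 in FAPs, 5871, 6319 and 6257 in injured FAPs and 82530 in the CD31+CD45+ library, with Abcc9 at the top in ASCs and Rgs5 or Acta2 elsewhere. Of these 7, 0 were higher and 6 lower in ASCs than in FAPs, 0 higher and 7 lower after injury, and 4 higher and 2 lower in injured FAPs than in ASCs. The FAP libraries, lowest in Mt2, Slc39a14 and Slc39a8, thus carried the most smooth muscle marker RNA of the sorted cells.

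Muscle fibre markers summed to 163, 119 and 159 in ASCs, 949 and 1128 in FAPs, 331, 353 and 272 in injured FAPs and 4285 in the CD31+CD45+ library, with Tnnt3 or Acta1 at the top. Of 9 tested, 0 were higher and 9 lower in ASCs than in FAPs, 0 higher and 6 lower after injury (0 and 4 after quantile normalisation), and 8 higher and 0 lower in injured FAPs than in ASCs. Satellite cell markers summed to at most 5.66 in ASCs, 65.6 and 128 in FAPs, 51.0, 38.7 and 35.8 in injured FAPs and 541 in the CD31+CD45+ library, with Pax7 at 0 in all ASC libraries and Myog at 0 in both FAP libraries. Of 2 tested, 2 were lower in ASCs than in FAPs, 1 was lower after injury and 2 were higher in injured FAPs than in ASCs (1, 1 and 1 at a common total). Adipocyte markers, led by Car3, summed to 1008, 805 and 1618 in ASCs, 83.7 and 96.9 in FAPs, 32.2, 32.5 and 9.92 in injured FAPs and 154 in the CD31+CD45+ library. Of 3 tested, 3 were higher in ASCs than in FAPs, 2 were lower after injury (1 at a common total, 3 after quantile normalisation) and 3 were lower in injured FAPs than in ASCs. The part of these cell types in the values of the 6 genes was not tested.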

How the data were processed

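RNA was sequenced from 9 libraries, 8 of them in the comparisons. Per the labels, the submitters' processing notes name FastQC, HISAT2, Subread (featureCounts), DESeq2 and the mm10 build; strand and multimapping settings are not given in the sources used here. The deposited values are a signal, gene read counts that the authors divided by 1 size factor per library, called normalised counts here. Dividing by the value of 1 read returned whole reads for 100% of values (tolerance 0.1 reads), and 2 empty columns were left out.

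Values were tested as log2(value + 1) with limma 3.58.1 in R 4.3.3, with 3 group means in 1 fit and a prior variance that follows the mean (5 residual degrees of freedom). The 13601 genes whose mean reached 10 were tested, and p-values were adjusted over all of them by Benjamini-Hochberg. Calls needed both an adjusted p under 0.05 and a change of more than 0.58 on the log2 scale. On the recovered reads edgeR 4.0.16 called 6450 genes in ASCs against FAPs, 7303 in injured against uninjured FAPs and 7000 in injured FAPs against ASCs, and DESeq2 1.42.0 called 6412, 7227 and 6865. The fit was tested on simulated data. Alternatives were the pseudocount, the filter, 3 scalings (quantile normalisation, a common 75th percentile and a common total), the unadjusted p, the groups in the fit, a replicate block, the count tests and each library left out.

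The members and lists were chosen with earlier results of these data known. All 6 members were named; from each list, its called genes with the largest rise and fall were named (up to 3 each way for zinc transporters and 2 for the other lists), and for likeness the 3 genes with the highest r. Some results of these rules are not reported here. Promoter sequences were from RefSeq GRCm38.p6, and coordinates and transcript lengths from GENCODE M21, in which 24918 of 26214 symbols matched.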

Additional observations from a re-analysis of the deposited data

Results flagged for a closer look

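The CD31+CD45+ library from injured muscle was used in no comparison, and its values of Slc30a1 and Slc39a10 exceeded those of every library from NaCl-injected mice. The exporter Slc30a1 had 1348 normalised counts there, against at most 1196 in the ASC and FAP libraries and at most 247.2 in injured FAPs. The importer Slc39a10 had 1557, against at most 937.6 in the ASC and FAP libraries and at most 967.1 in injured FAPs. This is a single library at about 13091077 reads, and neither difference was tested.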

How the results depend on the processing

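The 18 fold changes of the 6 genes were computed under 20 alternatives, and of these 360 values 352 kept both their direction and their side of the threshold. The 3 that turned were all of Mtf1, a gene with no call in any comparison: -0.19 at a common total for ASCs against FAPs (reported 0.37), 0.37 at a common total for injured FAPs against ASCs (reported -0.31) and -0.031 after quantile normalisation for injured against uninjured FAPs (reported 0.06). Calls that changed for Mt1, Mt2 and Slc39a8 are given beside those genes, apart from the block.

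The number of members called was 5 of 6, 3 of 6 and 5 of 6 in the order of the comparisons, and leaving out each library in turn gave 5 to 5, 2 to 4 and 5 to 5. For the other zinc transporters in injured FAPs against ASCs, 2 were called as reported, 1 after quantile normalisation, 1 at a common 75th percentile, 8 at a common total and 1 to 2 with a library left out. In injured against uninjured FAPs their count ran from 3 to 6 with a library left out.

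Scaling to a common total moved the median log2 fold change of all genes by -0.48, 0.12 and 0.56 in the 3 comparisons, and the 75th percentile moved it by -0.17, -0.05 and 0.12. With the common total 19.6% of calls in ASCs against FAPs were higher (1449 against 5938, beside 49.6% as reported) and 81.7% in injured FAPs against ASCs (6817 against 1527, beside 49.3%). Relative to the median of all genes, the members ranged over the scalings from 1.55 to 2.47 for Mt1 in ASCs against FAPs, from 3.05 to 3.18 for Slc39a14 after injury and from -1.04 to -0.72 for Slc39a8 in injured FAPs against ASCs. Values are smaller at the common total, so the added 1 weighs more there on low genes such as Slc39a8. The cause of these shifts was not tested.

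Same-numbered libraries of different groups did not deviate together (correlations -0.054 to 0.045). With 2 FAP libraries the deviations within that group are equal and opposite, so this check is weak and cannot exclude pairing by number. With the replicate block, 6287, 7046 and 6861 genes were called beside 6416, 7153 and 6909, and Mt1 after injury was called at 0.60 (limma, Benjamini-Hochberg adjusted p = 0.00873). FAPs had 2 libraries, and where 1 was left out the other was assumed to vary like the other groups. The FAP values of Slc39a8 rest on fewer than 60 reads each, so small differences in it could not be seen at this depth.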

Other observations

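Zinc genes share their setting with iron and copper genes, acute phase genes and stress genes, which were listed as well. Of 13 iron handling genes 7 were higher and 1 lower in ASCs than in FAPs (median log2 fold change 1.03; after quantile normalisation 5 and 1 with 0.32, at a common total 6 and 1 with 0.46), 3 higher and 2 lower after injury (0.39; 2 and 2 after quantile normalisation), and 1 higher and 7 lower in injured FAPs than in ASCs (-0.59; at a common total 5 higher and 3 lower). Hmox1, which encodes heme oxygenase, was higher in ASCs than in FAPs by 4.18 ± 0.33 and lower in injured FAPs than in ASCs at -3.64 ± 0.29. Tfrc, the transferrin receptor gene, rose after injury by 2.96 ± 0.26 and was also higher in ASCs than in FAPs. Slc11a2 rose after injury by 1.20, and Heph and Steap3 fell, at -0.99 and -0.85. Slc40a1, the iron exporter gene, was lower in ASCs than in FAPs, at -1.82, and higher in injured FAPs than in ASCs, at 1.07, a comparison in which Heph was lower at -2.23.

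Of 7 copper handling genes tested 4 were higher and 0 lower in ASCs than in FAPs, with Slc31a1 at 0.91 and Atox1 at 0.78, though at a common total 0 were higher and 1 lower. After injury 2 were higher and 1 lower, with Cox17 at 1.03, Slc31a1 at 0.93 and Slc31a2 at -1.18. In injured FAPs against ASCs 1 was higher and 3 lower, with Cox17 at 0.72, Slc31a2 at -1.43 and Atox1 at -0.68, where a common total gave 2 higher and 1 lower and put Atox1 at 0.01. The Cox17 call there was lost after quantile normalisation, at 0.48.

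Of 12 genes of the IL-6 and STAT3 response 10 were higher and 0 lower in ASCs than in FAPs (median 1.77), with Il6 at 4.49 ± 0.20 and Hp at 3.26 ± 0.41. A common total gave 7 higher and 1 lower there (median 1.19), quantile normalisation 8 and 0 (median 1.47) and the 75th percentile 10 and 1. After injury 7 were higher and 0 lower (median 1.58), with the acute phase gene Saa3 at 5.21 ± 0.60 and Timp1 at 3.94 ± 0.32. In injured FAPs against ASCs 5 were higher and 6 lower (6 and 3 after quantile normalisation), with Saa3 at 3.52, Lcn2 at 3.31, Il6ra at -3.36 and Hp at -2.93. Il6 itself had means of 18301 in ASCs, 826.1 in FAPs and 11676 in injured FAPs. Slc39a14 and Mt2 were also lowest in FAPs. In injured FAPs against ASCs, however, Slc39a14 was higher, at 1.29, and Il6 lower, at -0.64 (0.05 after quantile normalisation). The part of IL-6 in the values of the 6 genes was not tested.

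Of 9 glucocorticoid response genes 4 were higher and 1 lower in ASCs than in FAPs, with Errfi1 at 2.66, Sgk1 at 1.92 and Tsc22d3 at -1.90, where quantile normalisation and a common total gave 3 and 3. After injury 1 rose, Sgk1 at 1.342, and 4 fell, furthest Tsc22d3 at -2.66 and Zbtb16 at -1.59. In injured FAPs against ASCs 0 were higher and 5 lower, with Zbtb16 at -2.84 and Errfi1 at -2.45, where a common total gave 3 and 3.

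Of 20 immediate early and heat shock genes, which respond within minutes to tissue dissociation, 7 were higher and 6 lower in ASCs than in FAPs, with Fosb at 2.79, Ier3 at 1.30, Hspa1b at -2.66 and Hspa1a at -2.38 (3 and 9 at a common total, 2 and 9 after quantile normalisation). After injury 2 were higher and 14 lower, with Hspe1 at 1.83, Ier3 at 1.78, Hspa1a at -2.90 and Hspa1b at -2.86. In injured FAPs against ASCs 1 was higher and 11 lower, with Hspe1 at 1.18, Atf3 at -2.87 and Fosb at -2.82 (3 higher and 6 lower at a common total, 6 and 7 after quantile normalisation). The most abundant of the list was Fosb in ASCs, Egr1 in FAPs and Hspa8 in injured FAPs. The part of dissociation in the values of the metallothioneins was not tested.

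The genes that flank the metallothionein locus, chosen by position after the member values were seen, were read beside Mt1 and Mt2. Nup93 lies beyond Mt1 and was higher in ASCs than in FAPs by 0.87 and after injury by 1.38, and in injured FAPs against ASCs it gave 0.51, under the threshold, where Mt1 and Mt2 were lower. Bbs2, on the far side of Mt4, fell after injury, at -1.08.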
